A study of Mus musculus with 17 samples.

Results

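The 10 transcription factors Gata1, Gata2, Tal1, Klf1, Runx1, Mitf, Spi1, Ikzf1, Cebpa and Irf8 direct the choice between blood lineages, and their signals were followed across cells carrying 5 forms of the NF-kB subunit p65/RelA. They were taken by gene name from the 39429 probes of the array: 9 were listed under these names, and Spi1 was listed under its older symbol Sfpi1 and found through its accession. Together they had 14 probes, of which 11 passed the filter on dim probes, so that 8 of the 10 were tested among 15254 genes. Cebpa and Irf8 did not pass. An F-test over the constructs called Klf1 and Spi1, and both had their lowest mean in cells carrying the 2 fragments of p65 together. With rounds of arrays, inferred from numbers in the sample titles, as a block, the test called 6 of the 8 (36.1% of all genes). With slide as a block it called 0 of the 8, where 469 of the 15254 genes were called. Without scaling between arrays it also called 0 of the 8, and the count of all genes is not given for that setting. At the brightest probe of each gene, no estimated difference of a tested regulator from wild-type p65 exceeded 0.84 log2 units in size, while the beta-globin Hbb-bt rose by 5.47 with residues 362-549 and the mast cell protease Cma1 fell by -5.56 with both fragments.

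RNA came from 17 samples of DA1-3b, a murine leukaemia line positive for Bcr-Abl, whose strain the labels give as C3H eOuJ. Cultures were kept in serum-containing DMEM and received a plasmid by transfection, which coded for wild-type p65 (WT, n = 4), for the D361E mutant that the series design calls non-cleavable (n = 4), for residues 1-361 (n = 3), for residues 362-549 (n = 3) or for both fragments at once (1-361+362-549, n = 3). All 5 groups share the line and Bcr-Abl. An empty plasmid is named in the treatment protocol, but cells given it are not analysed here; WT therefore served as the reference and no group shows the cells without added p65. The labels do not give the promoter of the plasmids, whether the cells were cloned, or whether the samples were separate cultures. P-values therefore reflect the array-to-array spread alone, and that spread may be technical.

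GATA factors bind a short DNA motif and build the erythroid, megakaryocytic and mast cell programmes, with GATA2 acting early and GATA1 replacing it as red cells mature. TAL1 binds beside them at E-boxes, and KLF1 switches on adult beta-globin through CACCC-type motifs. PU.1, the product of Spi1, together with C/EBP alpha (Cebpa) and IRF8, drives myeloid cells, while MITF works with GATA2 in mast cells, Ikaros (Ikzf1) shapes lymphoid cells and RUNX1 stands at the start of the whole blood system.

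Values are log2 processed signals minus the 75th percentile of the same array, called the level below. A change is a difference of mean levels ± its standard error from limma, with p-values adjusted by the Benjamini-Hochberg method over every gene tested, and 0.05 was the threshold of the adjusted p for a call. The 75th percentile ran from 635.8 to 1213.6 units, and 49% to 53.7% of probes were well above background on each array. The arrays lay on 6 slides that mixed the groups. The running numbers in the sample titles also fall into 4 rounds of 6 numbers, and arrays of one round tended to deviate from their group means together. Because the samples are bulk RNA, fewer cells of a type and less RNA per cell cannot be told apart. Defining markers of several lineages were not well above background on any of the 17 arrays, among them Kit and Ms4a2 for mast cells, Alas2 for red cells and Col1a1 for stroma.

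The start sites of 4 transcripts are shown because their upstream bases hold motifs of factors under study here: GATA, which Gata1 and Gata2 encode, and NF-kB, to which p65 belongs. RefSeq windows of assembly GRCm38.p6 were found for 9 of the 10 members, 16 windows in all, and the 250 bases before the start site are printed on the plus strand. Capitals mark only the motif that the line names, and other matches in the same window stay in lower case. The letters searched for GATA were AGATAA and AGATAG, and also TGATAA and TGATAG, on either strand, and the NF-kB motif was searched by its consensus on either strand.
Klf1, chr8:84901732-84901981, a GATA match starting 80 bases before the start site: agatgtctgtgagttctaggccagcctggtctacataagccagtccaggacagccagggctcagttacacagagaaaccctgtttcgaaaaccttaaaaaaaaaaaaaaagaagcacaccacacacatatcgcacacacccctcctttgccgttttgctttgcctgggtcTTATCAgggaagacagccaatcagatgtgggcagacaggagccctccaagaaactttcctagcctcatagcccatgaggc
Tal1, chr4:115056176-115056425, a GATA match 205 bases before the start site: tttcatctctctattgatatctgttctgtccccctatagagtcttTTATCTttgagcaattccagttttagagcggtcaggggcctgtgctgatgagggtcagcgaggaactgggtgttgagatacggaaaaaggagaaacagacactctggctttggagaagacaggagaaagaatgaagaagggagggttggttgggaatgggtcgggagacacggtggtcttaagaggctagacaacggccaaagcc
Tal1, chr4:115057561-115057810, an NF-kB match 69 bases before a second start site: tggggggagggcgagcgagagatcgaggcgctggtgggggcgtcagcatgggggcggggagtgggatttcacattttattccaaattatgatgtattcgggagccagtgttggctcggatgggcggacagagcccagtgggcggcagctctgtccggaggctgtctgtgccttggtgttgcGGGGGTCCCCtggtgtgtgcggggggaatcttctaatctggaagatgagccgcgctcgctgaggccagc
Mitf, chr6:97929567-97929816, an NF-kB match 177 bases before the start site: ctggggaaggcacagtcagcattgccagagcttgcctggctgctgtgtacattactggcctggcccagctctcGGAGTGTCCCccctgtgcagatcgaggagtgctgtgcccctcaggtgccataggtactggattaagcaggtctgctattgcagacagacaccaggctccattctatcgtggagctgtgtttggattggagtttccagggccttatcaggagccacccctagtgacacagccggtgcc
Counting windows of 300 bases that reach 50 bases past the start site, a GATA match was present in 4 of the 16 member windows and in 29.8% of 32851 windows of all genes. The 4 windows belonged to Klf1, Tal1 and Mitf, the last with 2 windows: the one printed, where the GATA match is in lower case, and one not printed. An NF-kB match was present in 2 of 16 against 8.46% of all windows. A CACCC-type match (CCNCNCCC) was present in 10 of 16 against 49.5%, and an E-box (CANNTG) in 8 of 16 against 72.3%. These are letter matches and not measured sites.

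Klf1, the erythroid factor of beta-globin (probe at chr8:87428881-87428940 of mm9), was high with WT, D361E and 362-549 and low with 1-361 and with both fragments. Its level was 1.43, 1.31, 0.65 and 1.18 on the 4 WT arrays. With D361E it was 0.99, 1.035, 1.20 and 1.43, and with 362-549 it was 1.41, 1.53 and 1.19. With 1-361 it was 0.63, 0.24 and 0.55, and with both fragments it was 0.29, 0.38 and 0.24. All 3 arrays with both fragments lay below every array of WT, D361E and 362-549, and they overlapped with 1-361.
Klf1 was called by the F-test that combines the 4 differences from WT (adjusted p = 0.00345, limma), where 8.9% of all genes were called. Klf1 was lower with both fragments than with WT by -0.84 ± 0.18 (1.79-fold, adjusted p = 0.0108), than with D361E by -0.86 ± 0.18 (1.82-fold, adjusted p = 0.00599) and than with 362-549 by -1.08 ± 0.19 (2.11-fold, adjusted p = 0.00214). The change with 1-361 against WT was -0.67 ± 0.18 and missed the threshold (adjusted p = 0.172). These 2 groups were separated by a gap of only 0.025. The share of all genes without overlap is not given here, for this or other pairs of groups. Between the single fragments Klf1 was higher with 362-549 than with 1-361 by 0.91 ± 0.19 (adjusted p = 0.0465), and 14 of the 17 arrays ended this call when left out. The difference between both fragments and 1-361 was -0.17 ± 0.19 (adjusted p = 0.571).
With slide as a block the adjusted p against WT was 0.199, against 362-549 it was 0.104, and against D361E it was 0.0473, with 0.138 for the F-test. Within slides the difference from D361E was -0.75, -1.05 and -0.92 on the 3 slides that held both groups, and the difference from WT was -1.045 on the 1 such slide. Without replicate 1 of both fragments the adjusted p against WT was 0.0506. Without scaling between arrays all 4 calls of Klf1 and its F-test call were lost (adjusted p from 0.214 to 0.8 in the contrasts), and with normexp correction the calls against WT (adjusted p = 0.0958) and between the single fragments (adjusted p = 0.322) were lost.

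**Figure D1:**
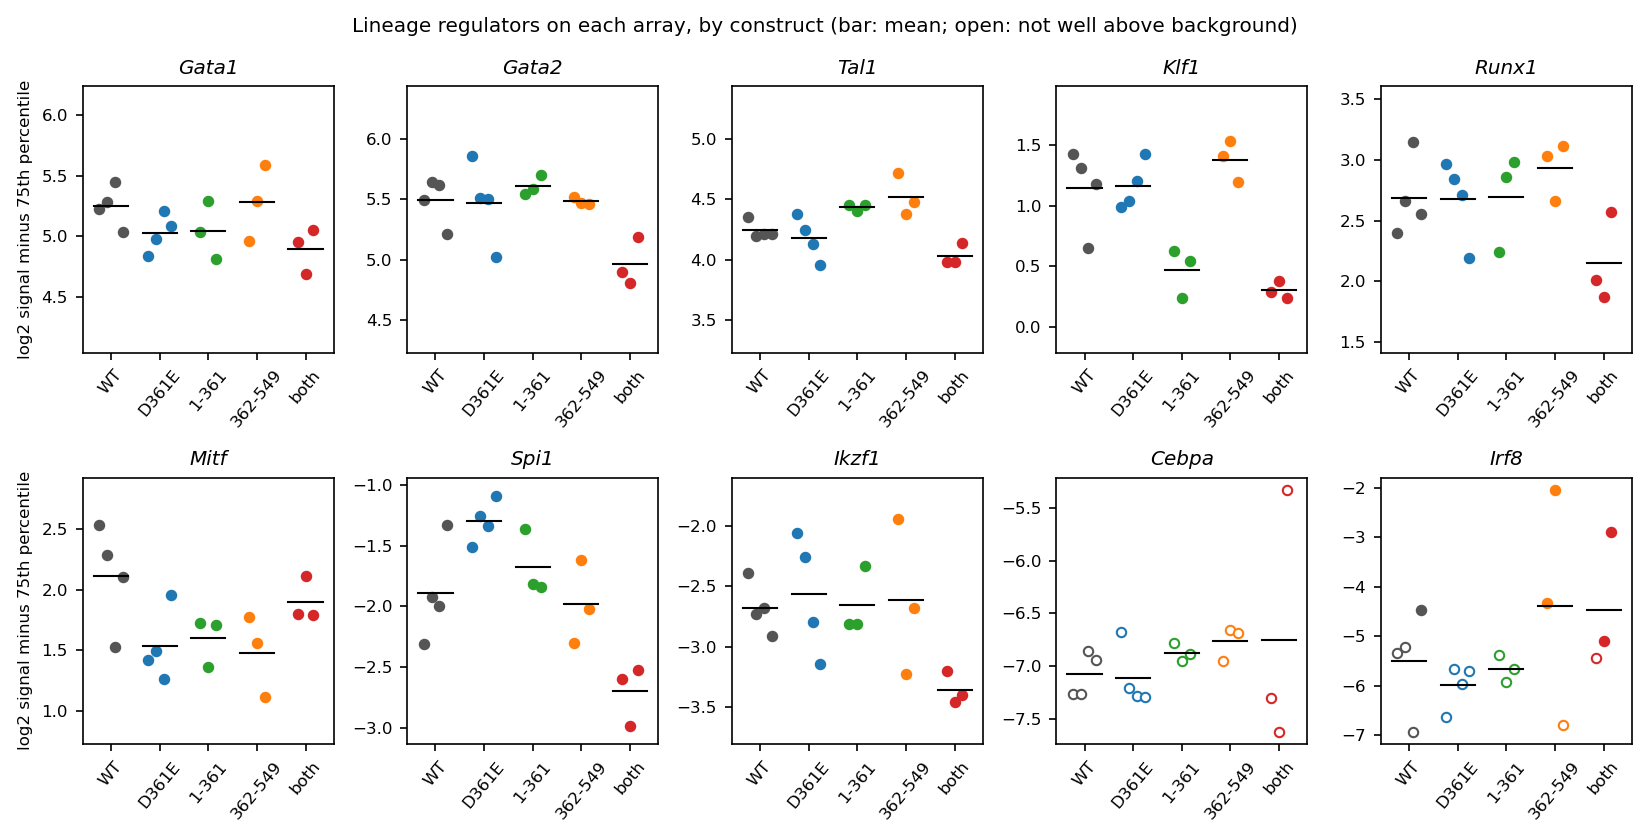
Level of each regulator on each of the 17 arrays (vertical axis: log2 processed signal minus the 75th percentile of the array; horizontal axis: construct, "both" standing for 1-361+362-549). Bars are group means, open points were not well above background, and each panel has its own axis. Klf1 is low with 1-361 and with both fragments, Spi1 is highest with D361E (mean -1.295) and lowest with both fragments (mean -2.70), and Cebpa is open on every array.

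Gata2, the factor of stem cells, progenitors and mast cells (probe at chr6:88156362-88156421 of mm9), was lower with both fragments, while its levels in the other 4 groups lay close together. Its level was 4.90, 4.81 and 5.19 with both fragments. On the WT arrays it was 5.50, 5.64, 5.62 and 5.22, and with D361E it was 5.86, 5.51, 5.50 and 5.02. With 1-361 it was 5.54, 5.59 and 5.70, and with 362-549 it was 5.52, 5.47 and 5.46. The arrays with both fragments lay below all those of WT, 1-361 and 362-549 and overlapped with D361E.
Against 1-361 the change was -0.65 ± 0.18 (1.57-fold, adjusted p = 0.0369), and without rounds as a block this was the only call for Gata2. Against WT it was -0.53 ± 0.17 (95% interval -0.90 to -0.16, adjusted p = 0.0999). Against D361E it was -0.51 ± 0.17 (adjusted p = 0.0784), and against 362-549 it was -0.52 ± 0.18 (adjusted p = 0.0701). The call against 1-361 had an adjusted p of 0.462 without scaling, 0.0502 with quantile normalization, 0.194 with normexp correction, 0.0998 with no filter and 0.156 with slide as a block. The difference was -0.36 and -0.775 within the 2 slides that held both groups, and the call was lost when any of 7 arrays was left out.

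Gata1, the factor of red cells and megakaryocytes (probe at chrX:7536392-7536451 of mm9), was not called in any of the 10 contrasts without rounds as a block. Its mean level ran from 4.90 ± 0.185 (SD, n = 3) with both fragments to 5.28 ± 0.31 (SD, n = 3) with 362-549. Its changes against WT were -0.22 ± 0.16 with D361E, -0.20 ± 0.17 with 1-361, 0.03 ± 0.17 with 362-549 and -0.35 ± 0.17 with both fragments (95% interval -0.71 to 0.015). The sign of the 362-549 change turned without scaling and with quantile normalization.

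Tal1, partner of the GATA factors (probe at chr4:114744219-114744278 of mm9), was highest with the single fragments and lowest with both together. By array its level was 4.71, 4.38 and 4.47 with 362-549, 4.45, 4.405 and 4.455 with 1-361, and 3.98, 3.98 and 4.135 with both fragments. The WT arrays gave 4.35, 4.19, 4.21 and 4.21, and those with D361E gave 4.38, 4.24, 4.13 and 3.95. Both fragments differed from 362-549 by -0.49 ± 0.13 (1.4-fold, adjusted p = 0.0236), with no overlap. Against 1-361 the change was -0.40 ± 0.13 (adjusted p = 0.0605), and against WT it was -0.21 ± 0.12 (adjusted p = 0.394).
No slide held both 362-549 and both fragments, and with slide as a block the adjusted p was 0.286. Without scaling between arrays this difference turned to 0.12, while the median of all genes in that contrast shifted by 0.61. The call was also lost with normexp correction (adjusted p = 0.116) and with no filter (adjusted p = 0.0754).

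Spi1, which encodes the myeloid factor PU.1, had the largest difference between groups among the members. Its probe reads across an exon junction, since the 60 bases span 13788 bases of the mm9 genome:
Spi1, chr2:90939665-90953452, probe: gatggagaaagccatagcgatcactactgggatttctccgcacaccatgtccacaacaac
The level of Spi1 was -2.31, -1.92, -1.99 and -1.33 on the WT arrays and -1.51, -1.25, -1.335 and -1.085 with D361E. It was -1.36, -1.82 and -1.84 with 1-361, -2.30, -1.62 and -2.02 with 362-549, and -2.595, -2.99 and -2.52 with both fragments. The arrays with both fragments were below every other array, and D361E had the highest mean.
The F-test called Spi1 (adjusted p = 0.00895, with slide as a block 0.119). With both fragments Spi1 was lower than with D361E by -1.41 ± 0.23 (2.65-fold, adjusted p = 0.000776, with slide as a block 0.0166), and this call held when each of the 17 arrays was left out. It was lost with normexp correction (adjusted p = 0.15). It was lower than with 1-361 by -1.03 ± 0.24 (2.04-fold, adjusted p = 0.0157, with slide as a block 0.112). Without replicate 2 of both fragments or replicate 1 of 1-361 that second call was lost, as it was without scaling (adjusted p = 0.19) and with normexp correction (adjusted p = 0.388). Within slides the difference from D361E was -1.01, -1.90 and -1.26, and that from 1-361 was -1.16 and -1.17. Against WT the change was -0.81 ± 0.23 (95% interval -1.295 to -0.33, adjusted p = 0.0517), just outside the threshold, and against 362-549 it was -0.72 ± 0.24 (adjusted p = 0.0579). D361E exceeded WT by 0.59 ± 0.21 (adjusted p = 0.626), with 1 WT array inside the D361E range.

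Cebpa and Irf8, the other myeloid factors, could not be measured in most samples. The Cebpa probe was not well above background on any of the 17 arrays. The Irf8 probe was above it on 1 WT array, 2 arrays of 362-549 and 2 of both fragments, and its level with 362-549 ran from -6.79 to -2.03. No change is given for either gene.

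Runx1, a factor of early blood cells, had a pair of usable probes that moved alike in direction but not in size. The brighter one, which stood for the gene, was not called in any contrast without rounds as a block. Its change with both fragments was -0.54 ± 0.25 from WT (95% interval -1.07 to -0.008, adjusted p = 0.268) and -0.79 ± 0.27 from 362-549 (adjusted p = 0.0594). The other probe had levels of -0.57, -0.84 and -0.59 with both fragments. With WT it read 0.03, 0.61, 0.54 and -0.006, with 1-361 0.77, 0.42 and 0.81, and with 362-549 0.78, 0.78 and 0.42. Tested among all probes, this probe of Runx1 was called in the F-test (adjusted p = 0.0416), as were 7.55% of probes. Its difference from WT with both fragments was -0.96 ± 0.28 and was not called (adjusted p = 0.0686), with a gap of 0.56 between groups. It was lower with both fragments than with D361E by -1.002 ± 0.28 (adjusted p = 0.0369, groups overlapping, 8.71% of probes called), than with 1-361 by -1.33 ± 0.30 (adjusted p = 0.0132, 9.37% of probes called) and than with 362-549 by -1.33 ± 0.30 (adjusted p = 0.0106, 13.2% of probes called). With slide as a block these adjusted p-values were 0.0608, 0.046 and 0.179. The probes lie at chr16:92605785-92605844 (the brighter) and chr16:92604413-92604472 of mm9.

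Mitf, the mast cell and melanocyte factor (probes at chr6:97971229-97971288 and chr6:97968501-97968560 of mm9), had its highest mean with WT and was not called on either of its probes without rounds as a block. The brighter probe averaged 2.11 ± 0.43 (SD, n = 4) with WT, 1.535 ± 0.30 with D361E (n = 4), and 1.60 ± 0.21, 1.48 ± 0.335 and 1.90 ± 0.18 with 1-361, 362-549 and both fragments (n = 3 each). Its changes from WT were -0.58 ± 0.22, -0.51 ± 0.23, -0.63 ± 0.23 and -0.21 ± 0.23 in the same order, with adjusted p from 0.428 to 0.703. Unlike the other 7 tested members it was not lowest with both fragments, where its change from 362-549 was 0.42 ± 0.25 (adjusted p = 0.264).

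Ikzf1, which encodes Ikaros, had 3 probes (the brightest at chr11:11661344-11661403 of mm9), of which 1 was never well above background. The brightest averaged -3.355 ± 0.13 (SD, n = 3) with both fragments and between -2.68 and -2.565 in the other groups. Its change from WT was -0.68 ± 0.285 (95% interval -1.29 to -0.067, adjusted p = 0.222). The other usable probe changed by only -0.15 ± 0.35 in the same contrast (adjusted p = 0.861), so the probes of Ikzf1 disagree in size. They also disagree in sign: with both fragments the difference from 362-549 was -0.74 at the brightest probe and 0.14 at the other, and that from 1-361 was -0.70 and 0.09.

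Against WT, 0 of the 8 regulators tested were called with D361E (0.485% of all genes called), 0 with 1-361 (0.715%), 0 with 362-549 (0.715%) and 1, Klf1, with both fragments (5.13%). At an unadjusted p under 0.05, D361E gave 2 of 8 regulators (5.01% of all genes), 1-361 gave 2 (7.7%), 362-549 gave 2 (8.84%) and both fragments gave 5 (18%). With both fragments all 8 estimates lay below 0, with a median of -0.53 against 0.04 for all genes, of which 45.5% lay below 0. They stayed below 0 without scaling, where the median of all genes moved to 0.23.
Against the other constructs, both fragments called 2 of 8 compared with D361E (Klf1 and Spi1, 9.69% of all genes), 2 with 1-361 (Gata2 and Spi1, 11.2%) and 2 with 362-549 (Klf1 and Tal1, 14.6%), each lower with both fragments. In contrasts that did not involve both fragments, 1 of 8 was called between the single fragments (Klf1, 0.629% of all genes), and 0 between 1-361 and D361E (1.02%) or 362-549 and D361E (1.28%). The 4 comparisons of both fragments share their 3 arrays.
These 8 calls over the 10 contrasts became 2 with slide as a block, 2 without scaling and 2 with normexp correction. Over all genes, calls for both fragments against WT went from 783 to 242, 432 and 199 in the same order. The 8 member calls became 4 without replicate 1 or without replicate 2 of both fragments and 13 without its replicate 3. The count over all genes for both fragments against WT was then 469, 448 and 1239. The member calls became 15 without D361E replicate 4 and 5 without 1-361 replicate 1, where the count over all genes is not given here.
With these rounds as a block, 6 of 8 regulators were called lower with both fragments than with WT (30.7% of all genes called), namely Gata1, Gata2, Klf1, Spi1, Runx1 and Ikzf1. Against 362-549 it was 7 of 8, all except Mitf (39.8% of all genes called). The F-test then called 6 of 8 (36.1% of all genes called), Gata2, Klf1, Tal1, Spi1, Mitf and Ikzf1, with adjusted p from 0.0016 to 0.0388. Gata2 was called lower with both fragments than in each other group. Same-round deviations of both fragments correlated at 0.039 to 0.553 with those of D361E and at 0.071 to 0.289 with those of 1-361. The change of Gata2 from WT was then -0.65 ± 0.12 (adjusted p = 0.00299), and within rounds it was -0.60, -0.83 and -0.43. Spi1 changed by -0.68 ± 0.18 from WT (adjusted p = 0.0153; within rounds -0.28, -1.06 and -0.53), Runx1 by -0.64 ± 0.20 (adjusted p = 0.0319), Ikzf1 at its brightest probe by -0.81 ± 0.19 (adjusted p = 0.0105) and Gata1 by -0.38 ± 0.12 (adjusted p = 0.0349). The labels do not say what the title numbers mark.

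**Figure D2:**
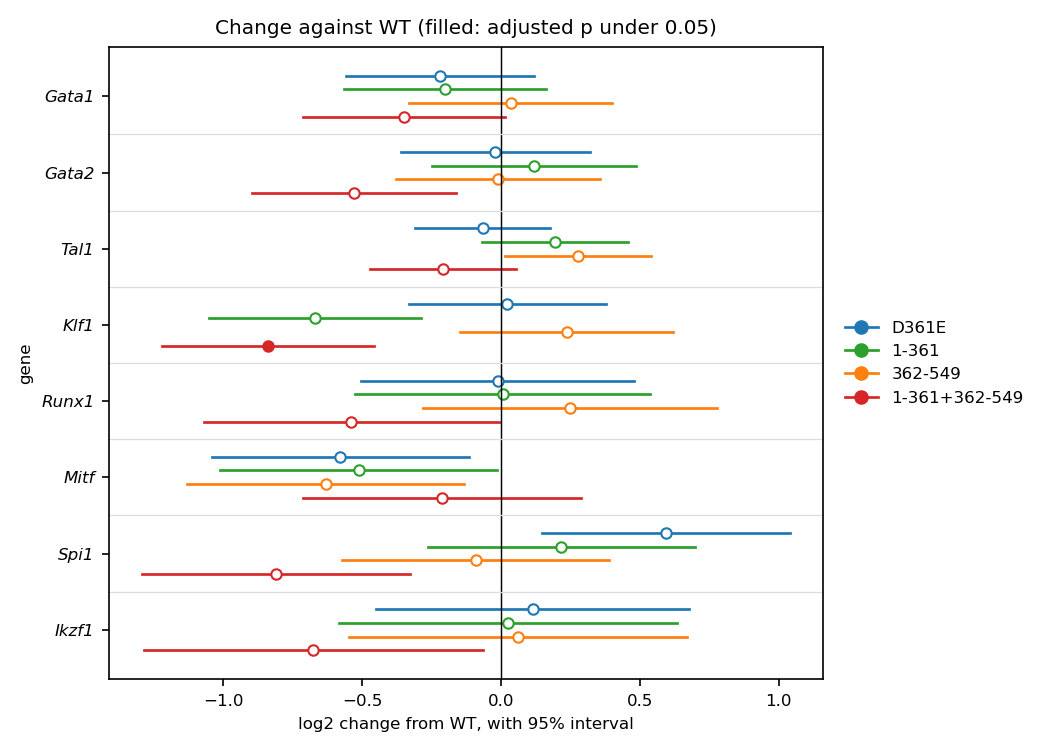
Change of 8 regulators from WT on the log2 scale (horizontal axis, points with 95% intervals) for the 4 other constructs (colours). Filled points have an adjusted p under 0.05: Klf1 with both fragments, at -0.84, is the single one.

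**Figure D3:**
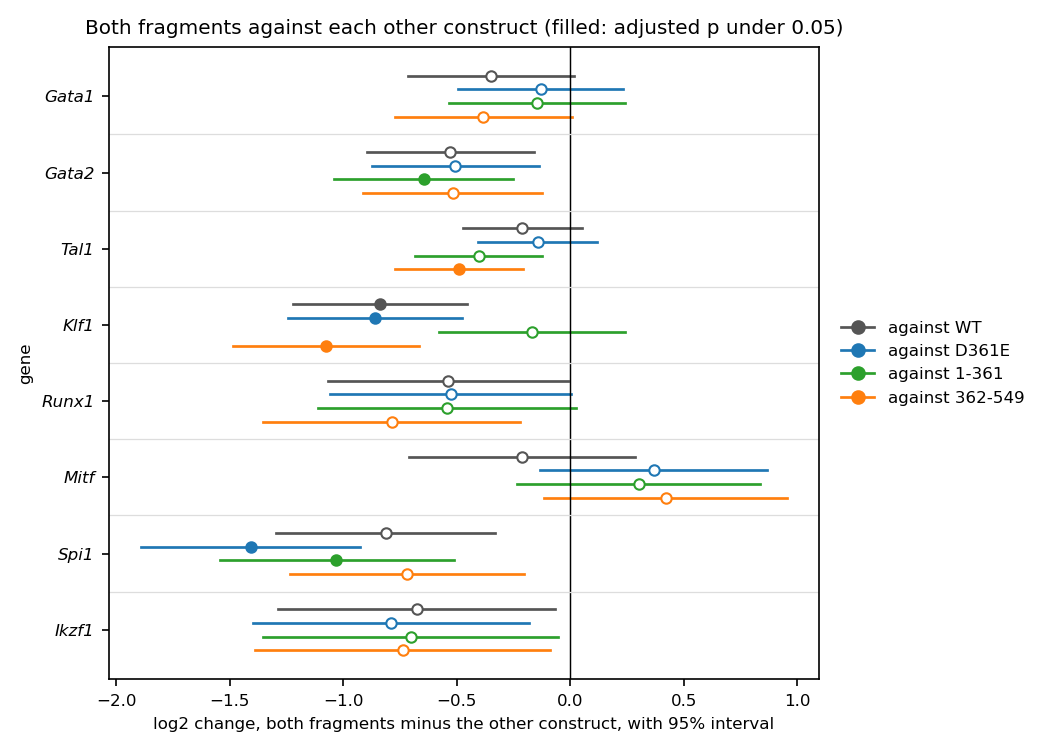
Both fragments minus each of the 4 other constructs (colours) for the same 8 regulators, on the log2 scale with 95% intervals. Filled points have an adjusted p under 0.05. Most points lie left of 0, with the lowest for Spi1 against D361E (-1.41), and Mitf lies right of 0 against D361E, 1-361 and 362-549.

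Among erythroid effectors, Hbb-bt was called higher in every construct set against WT. Klf1 was called higher in none, though its estimates with D361E (0.02) and 362-549 (0.24) were above 0. The highest mean of both genes was with 362-549. Of 28 genes listed, 18 were tested: 5 rose with D361E, 4 with 1-361, 6 with 362-549 and 2 with both fragments, and none fell. Of all genes, 0.485%, 0.715%, 0.715% and 5.13% were called in these contrasts. The median change of the 18 was 0.10, 0.31, 0.16 and 0.245, against 0.03, 0.04, 0.05 and 0.04 for all genes, and without scaling it was -0.11, 0.08, -0.25 and 0.44. Without WT replicate 3 the median with 362-549 was 0.32. Adult beta-globin Hbb-bt had a level of -0.92, -0.41, -0.23 and -0.825 with WT. It was 1.99, 2.105, 2.33 and 0.705 with D361E, 2.53, 2.34 and 2.81 with 1-361, 4.47, 4.97 and 5.16 with 362-549, and 0.765, 0.51 and 0.91 with both fragments.
The change of Hbb-bt from WT was 2.38 ± 0.295 with D361E (adjusted p = 0.000618), 3.155 ± 0.32 with 1-361 (adjusted p = 4.95e-05), 5.47 ± 0.32 with 362-549 (adjusted p = 1.78e-07) and 1.33 ± 0.32 with both fragments (adjusted p = 0.0224, with slide as a block 0.0783). Beside these, Klf1 changed by 0.02, -0.67, 0.24 and -0.84 in the same order, Gata1 by -0.22, -0.20, 0.03 and -0.35, and Tal1 by -0.07, 0.19, 0.28 and -0.21. Of these regulator changes only that of Klf1 with both fragments was called in the model without blocks. Without scaling the signs of Klf1 with D361E, of Tal1 with 1-361 and of Klf1, Gata1 and Tal1 with 362-549 turned.
Hbb-b2 rose by 2.33 ± 0.30, 2.91 ± 0.32 and 5.37 ± 0.32 with D361E, 1-361 and 362-549, and its change with both fragments was 0.99 ± 0.32 (adjusted p = 0.1). The embryonic globin Hbb-bh1 rose by 3.61 ± 0.37 with 1-361 (adjusted p = 4.95e-05) and by 3.46 ± 0.37 with 362-549 (adjusted p = 0.000124). Alpha-globin Hba-a2 rose by 1.84 ± 0.33, 1.84 ± 0.36 and 2.01 ± 0.36 with D361E, 1-361 and 362-549, where the adjusted p with slide as a block was 0.114, 0.0852 and 0.0431. Hba-a1 changed by 1.74 to 1.93 in these groups without passing the test (adjusted p from 0.0701 to 0.101). Adult globin genes of one cluster are near-identical, so their probes may share signal. Epor, the erythropoietin receptor, rose by 0.44 ± 0.11 with both fragments (adjusted p = 0.029, with slide as a block 0.292).

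Many mast cell and basophil effectors were called lower with both fragments, where Gata1, Gata2 and Mitf were not called against WT. Of 25 listed, 17 were tested: 1 rose and 2 fell with D361E, 2 rose and 2 fell with 1-361, and 2 fell with 362-549. Of all genes, 0.485%, 0.715% and 0.715% were called in these contrasts. With both fragments 10 were called (5.13% of all genes called), all lower. The median change of the 17 was -3.12 (-2.29 with dim genes at their bound). Genes of this list could pass the filter through the groups where they are high, and the median was -0.75 over genes above background on all 17 arrays and -0.91 with no filter. Of the 10 called, Fcer1a, Il13, Il4 and Mcpt8 were above background on 0 arrays with both fragments, Cpa3 and Tph1 on 1 and Mcpt4 on 2. The count of 10 therefore rests in part on genes that the filter kept for the other groups. Cpa3, a mast cell protease, had a level of 0.60, 1.60, 1.35 and 1.05 with WT. It was -1.57, -1.075, -1.21 and -1.71 with D361E, -0.64, -0.88 and -1.40 with 1-361, -0.37, 0.38 and 0.30 with 362-549, and -6.345, -5.31 and -7.02 with both fragments, of which 1 array was well above background.
Cpa3 fell with both fragments by -7.37 ± 0.35 as measured (adjusted p = 2.48e-09), and by at least 76.5-fold with dim arrays at their bound. It fell by -2.54 ± 0.325 with D361E (adjusted p = 0.000812, with slide as a block 0.145) and by -2.12 ± 0.35 with 1-361 (adjusted p = 0.00628, with slide as a block 0.249). With both fragments Fcer1g, a shared chain of Fc receptors, fell by -4.98 ± 0.20 (adjusted p = 3.7e-10), Tph1, an enzyme of serotonin synthesis (above background on 1 of 3 arrays, at least 55.9-fold with dim arrays at their bound), by -5.97 ± 0.26 (adjusted p = 1.17e-09) and the protease Cma1 by -5.56 ± 0.26 (adjusted p = 2.48e-09). Fcer1a, the IgE-binding chain, was at least 3.14-fold lower with both fragments (adjusted p = 9.92e-07) and at least 2.31-fold lower with 1-361 (adjusted p = 0.000125), since its probe was not well above background there. Il13 was at least 11.2-fold lower with both fragments (adjusted p = 1.3e-05) and at least 7.53-fold lower with 362-549 (adjusted p = 0.000146). The adjusted p-values of Fcer1a and Il13 test the signals as measured, those below background included, and not the bounds. The remaining 4 called lower with both fragments were Gzmb, Mcpt4, Mcpt8 and Il4 (all but Mcpt4 named after their values were seen). Mcpt8 and Il4 were not well above background on any array there, and no size is given for them. Hdc, the histamine-forming enzyme, changed by 0.285 ± 0.14 (adjusted p = 0.317).
The regulators of this lineage changed in the same contrast by -0.53 ± 0.17 (Gata2), -0.35 ± 0.17 (Gata1) and -0.21 ± 0.23 (Mitf), none of them called, though Gata2 and Gata1 were with rounds as a block. With D361E, Prg2, a granule protein, rose by 3.35 ± 0.66 (adjusted p = 0.0348, with slide as a block 0.952) while Cpa3 and Cma1 fell, Cma1 by -1.51 ± 0.24 (adjusted p = 0.0084, with slide as a block 0.235), and Gata2 changed by -0.02 ± 0.16. With 1-361, Fcer1g rose by 2.57 ± 0.20 (adjusted p = 3.27e-06) and Mcpt4 by 1.69 ± 0.34 (adjusted p = 0.0293, with slide as a block 0.133) while Cpa3 and Fcer1a fell, and Gata2 changed by 0.12 ± 0.17.
Markers of other cell types also differed from WT with both fragments, where 5.13% of all genes were called. Of 8 megakaryocyte markers tested 3 rose, and the summed linear level of the 8 was 134 to 208 against 49.7 to 64.7 with WT. A linear sum weighs bright genes most, and the platelet chemokine Pf4 had a mean level of 6.88 against 4.68 with WT. The median change of the 8 was 0.65. Of 7 T cell markers 3 fell and 1 rose, with sums of 7.25 to 11.5 against 12 to 15.5, and 0 of 4 B cell and 0 of 2 stromal markers were called. Their part in the mast cell result was not tested.

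Neutrophil and monocyte effectors fell in part with both fragments, where Spi1 was lowest. Of 33 listed, 18 were tested: 1 rose with D361E (Ly6c1), 1 fell with 1-361 (Fcgr1), 0 were called with 362-549 and 3 fell with both fragments. Of all genes, 0.485%, 0.715%, 0.715% and 5.13% were called in these contrasts. The median change of the 18 was 0.21, 0.21, 0.14 and -0.32 in that order, turning to -0.16 with 1-361 after normexp correction and to -0.27 with 362-549 without scaling. Without replicate 3 of both fragments the last median was -0.64. Ms4a3, expressed in granulocyte-monocyte progenitors, had a level of 0.92, 1.15, 0.26 and 2.43 with WT and 1.44, 2.32, 2.61 and 3.97 with D361E. It was 0.91, 0.65 and 0.68 with 1-361, 0.18, 0.70 and -0.27 with 362-549, and -1.63, -1.14 and -2.13 with both fragments, which did not overlap with any other group.
Against WT, Ms4a3 fell by -2.82 ± 0.52 (adjusted p = 0.00388, with slide as a block 0.127), Ncf1, a subunit of the NADPH oxidase, by -1.55 ± 0.27 (adjusted p = 0.00246, with slide as a block 0.0636). Adgre1, the macrophage antigen F4/80, was at least 10.6-fold lower at the probe tested (adjusted p = 2.61e-07), which was above background on 0 of the 3 arrays. Another Adgre1 probe was not dim on all of these arrays, so the bound holds for the tested probe alone. The adjusted p of Adgre1 tests the signals as measured and not the bound. Against D361E, where Spi1 differed most, Ms4a3 and Ncf1 fell by -4.22 ± 0.52 and -2.23 ± 0.27, and Adgre1 was at least 14.2-fold lower at its tested probe (adjusted p = 6.29e-08). Csf1r and Elane, further myeloid genes, changed by -0.23 ± 0.41 and -0.26 ± 0.29 from WT with both fragments (adjusted p = 0.809 and 0.681). Mpo was above background on at most 1 array and Csf2ra on 10.

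**Figure D4:**
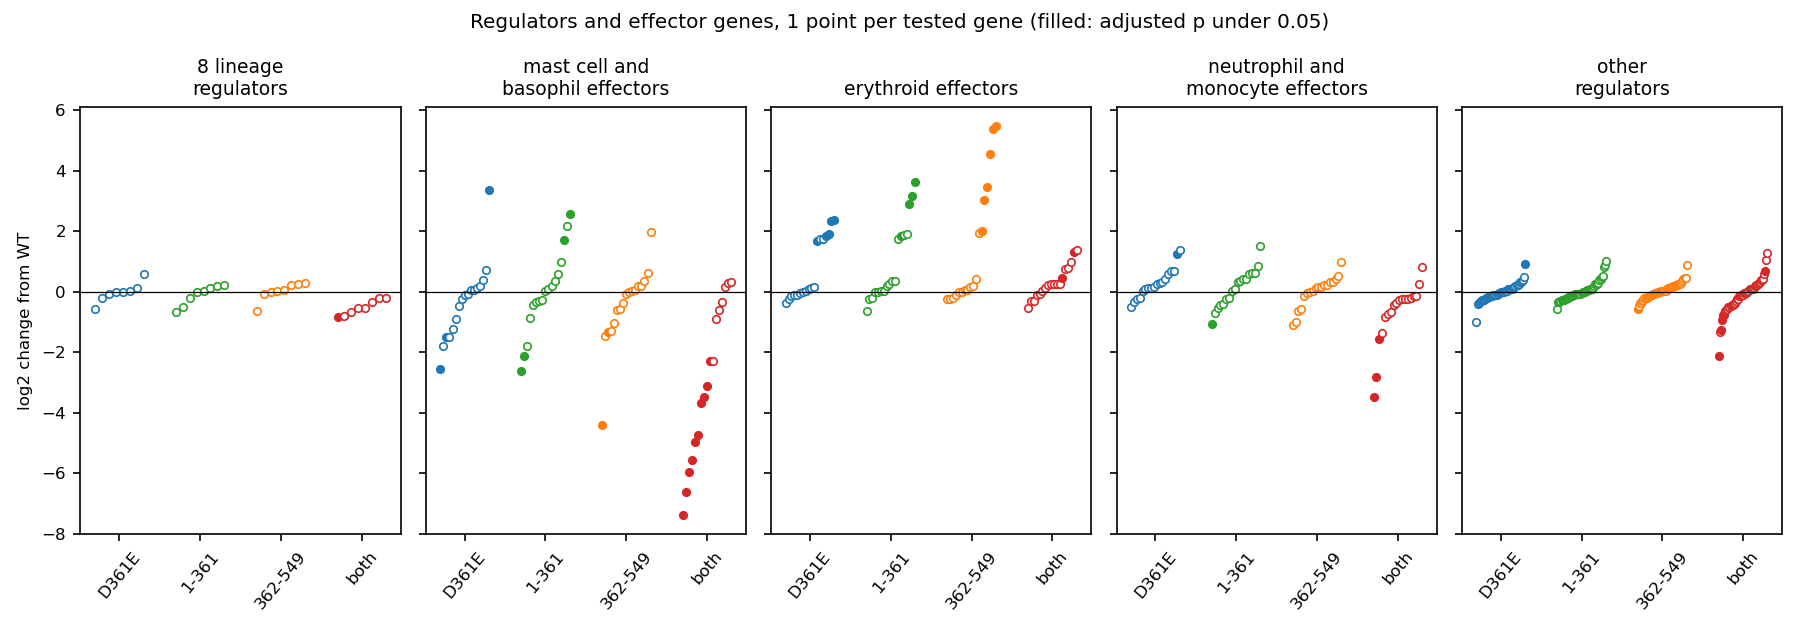
Change from WT on the log2 scale (vertical axis) of the 8 regulators and of every tested gene of 4 lists (panels), for each construct (horizontal axis, "both" standing for 1-361+362-549). Filled points have an adjusted p under 0.05. Regulators span about 1 unit around 0, beta-globins reach 5.47 with 362-549 and many mast cell effectors lie far below 0 with both fragments, where some, the lowest point (Cpa3) among them, were dim on 1 or more arrays.

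**Figure D5:**
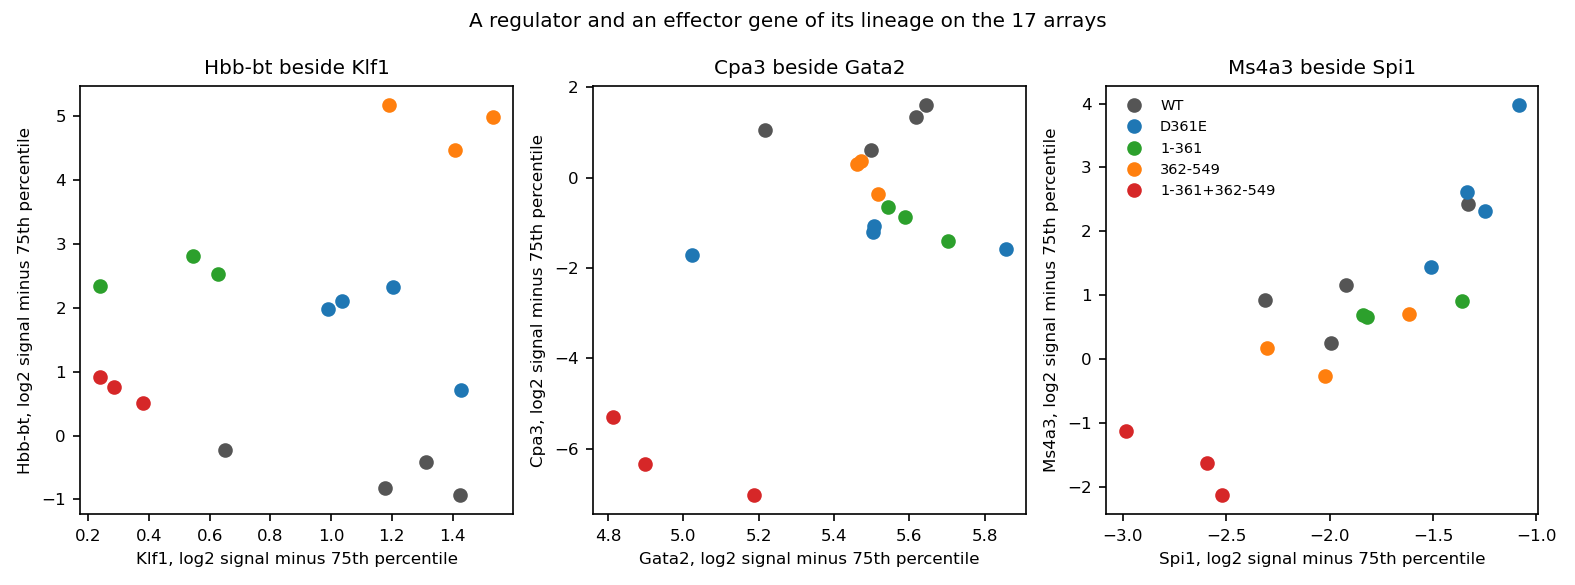
Level of an effector gene (vertical axis) against that of a regulator of its lineage (horizontal axis) on the 17 arrays, both as log2 signal minus the 75th percentile, coloured by construct. Hbb-bt is highest with 362-549 where Klf1 is 1.19 to 1.53, and reaches 2.34 to 2.81 with 1-361 where Klf1 is 0.24 to 0.63. The 3 arrays with both fragments sit lowest for Ms4a3 and Spi1, and for Cpa3 and, together with 1 D361E array, Gata2. These pairs were picked after the values were seen.

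Other regulators of blood development were called mainly with both fragments. Of 70 listed, 47 were tested: 1 rose with D361E (0.485% of all genes called), 0 were called with 1-361 (0.715%) and 1 fell with 362-549 (0.715%). With both fragments 6 were called (5.13% of all genes), of which 1 rose and 5 fell. Their median change was -0.02, -0.043, 0.02 and -0.12 in that order, the last turning to 0.08 without scaling and reaching -0.215 without replicate 3 of both fragments. The median with 1-361 ran from -0.116 without its replicate 2 to 0.045 without WT replicate 3. Cebpb fell by -1.26 ± 0.18 with both fragments (adjusted p = 0.000373, with slide as a block 0.0253). Id1 and Id2, which block E-box factors such as the partners of TAL1, fell by -0.925 ± 0.13 (adjusted p = 0.000412) and -2.12 ± 0.31 (adjusted p = 0.000485). Cebpe, the granulocyte member of the C/EBP family, rose by 0.92 ± 0.18 with D361E (adjusted p = 0.0336) and fell by -0.77 ± 0.195 with both fragments (adjusted p = 0.0319). Both calls of Cebpe were lost with slide as a block (adjusted p = 0.549 and 0.319). Ets2 fell by -0.58 ± 0.115 with 362-549 (adjusted p = 0.027) and rose by 0.70 ± 0.115 with both fragments (adjusted p = 0.00144), with 0.165 and 0.0551 with slide as a block. The fifth gene to fall was Mafk, named after its value was seen.
Partners that build complexes with GATA1 or TAL1 (Zfpm1, Lmo2 and Ldb1) and Lyl1, a relative of TAL1, were among those not called: with both fragments Zfpm1 changed by -0.12 ± 0.20, Lmo2 by 0.37 ± 0.20, Ldb1 by -0.05 ± 0.16 and Lyl1 by 0.59 ± 0.19 (adjusted p from 0.0868 to 0.906).

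Genes whose levels followed those of Klf1 and Spi1 most closely over the 17 arrays are given as a description, and all 17 points share the design. For Klf1 these were Tuba4a (r = 0.916), Spata21 (r = 0.907) and Spns3 (r = 0.892). After removal of group means the same r was 0.727, 0.525 and 0.783. For Spi1 they were Sidt2 (r = 0.933), Tspan5 (r = 0.929) and the integrin Itgax (r = 0.922), and after removal of group means 0.697, 0.814 and 0.815. The Itgax probe was well above background on all arrays of D361E and 1-361, on 1 of 4 WT arrays and on 0 of 3 with 362-549 and with both fragments, so its r rests in part on values below background.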

How the data were processed

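Gene expression was measured on 17 one-colour Agilent arrays, 1 per sample, by fluorescence intensity. The deposited processed intensities were made by the authors with Feature Extraction 10.7.3.1, which subtracted background and detrended within each array, per the file headers and the submitters' processing notes. Values between arrays were not scaled in these files. The deposited series table held the same intensities.

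Control spots and outlier spots were left out (132 probes had no usable spot), spots of a probe were averaged, and log2 intensities were centred on the 75th percentile of the array. A probe was kept where all arrays of some group read it well above background (19769 probes). Of the 39429 probes, 27508 were named through RefSeq accessions and 11921 kept the name in the file, and the brightest probe stood for a gene. Brightness at the floor has no order, so a group whose tested probe was above background on none of its arrays is given as a bound, and where some arrays measured it their number is given. A bound is the bright group's mean over the mean, per array, of the higher of the probe's own signal and the lowest signal well above background. An adjusted p printed beside a bound tests the signals as measured and not the bound. Limma 3.58.1 (R 4.3.3) fitted 1 model of 5 groups with 10 contrasts and 12 residual degrees of freedom, with Benjamini-Hochberg adjustment over all genes. The script was tested on simulated data. The number of arrays limits the precision.

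Named genes were all members, the called genes of each list with the smallest adjusted p (at most 4 per contrast with WT), fixed target genes of the members and the 3 genes most like a member called by the F-test. Hdc, Lyl1 and the partners of GATA1 and TAL1 were added for their known roles. A few genes under this rule are not reported here. The members and lists were chosen with earlier results of these data known. Alternatives were no scaling, quantile normalization, normexp correction with an offset of 50, other filters, averaging a gene's probes, a block for slide (fixed or random) or for round, and each array left out.

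Whether title numbers pair the arrays was checked by the correlation of deviations from group means: of 30 same-round pairs 28 were above 0.1 (median 0.3945, range 0.039 to 0.714). The median over 60 different-round pairs was -0.216. Each group was centred on its own arrays, so positive same-round correlations push the different-round ones below 0. That median therefore adds no separate support for the rounds. Every correlation passed 0.1 in 8 of 10 pairs of groups. The exceptions were both fragments with D361E and with 1-361. The rounds are inferred from the running numbers in the titles.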

Additional observations from a re-analysis of the deposited data

Results flagged for a closer look

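Of 28 groups of 4 arrays scanned over the member probes, 3 held an array far from the others, where chance gives about 1 in 20. For Tal1, WT replicate 1 had a level of 4.35 and the next array 4.21. For Cebpa, D361E replicate 1 had -6.68 and the next -7.205, and for a probe of Ikzf1, D361E replicate 3 had -7.33 and the next -6.29. The Cebpa and Ikzf1 probes were not well above background on any array.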

How the results depend on the processing

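Of 60 changes of sign over all settings, 59 concerned changes that were not called as reported, and the exception was Tal1 between both fragments and 362-549. The causes were not tested. Calls over the 10 contrasts (8 for genes) and in the F-test (2 genes) moved as follows. Without scaling there were 2 by gene, 2 by probe and 0 in the F-test, and 432 genes were called for both fragments against WT. With normexp correction there were 2 by gene, 2 by probe and 1 in the F-test, and 12, 31, 27 and 199 genes were called for D361E, 1-361, 362-549 and both fragments against WT, with 364 in the F-test. The filter on all 17 arrays gave 34, 61 and 51 genes for the first 3 of these. With no filter 45 genes were called for D361E, 839 in the F-test and 5 member changes. With slide as a fixed block the counts were 24, 39, 65 and 242 genes, 469 in the F-test, and 2 by gene, 2 by probe and 0 in the F-test for the members. With the round as a block, the pairing by title number, the counts were 248, 206, 194 and 4688 genes, 5511 in the F-test, and 24 by gene, 28 by probe and 6 in the F-test for the members.

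Changes from WT that turned sign, in the order D361E, 1-361, 362-549, were these. Without scaling: Gata1 -0.38 (362-549), Gata2 -0.116 (1-361), Klf1 -0.195 and -0.178 (D361E, 362-549), Tal1 -0.04 and -0.136 (1-361, 362-549), Spi1 -0.016 (1-361), Runx1 -0.229 and -0.166 (1-361, 362-549), Ikzf1 -0.104, -0.207 and -0.353, and Tal1 between both fragments and 362-549 0.118. With quantile normalization: Gata1 -0.082 (362-549), Runx1 0.007 (D361E), Ikzf1 -0.125 and -0.068 (1-361, 362-549). With normexp: Gata2 0.108 and 0.117 (D361E, 362-549), Tal1 0.068 and Runx1 0.1 (D361E), Ikzf1 -0.214, -0.265 and -0.209. With the mean of all probes: Runx1 0.014 (D361E), Ikzf1 -0.014, -0.106 and -0.11. With slide as a block: Klf1 -0.038 and Runx1 0.135 (D361E). With round as a block: Gata2 -0.003, Runx1 -0.1 and Ikzf1 -0.109 (1-361), Spi1 0.036 and Ikzf1 -0.074 (362-549).

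Leaving out each of the 17 arrays gave 39 to 93 genes called for D361E, 62 to 128 for 1-361, 448 to 1239 for both fragments and 717 to 2104 in the F-test, with 4 to 15 member calls by gene, 4 to 18 by probe and 1 to 3 in the F-test. Changes from WT then ran from -0.121 to 0.193 (Gata1, 362-549), -0.15 to 0.128 and -0.103 to 0.04 (Gata2, D361E and 362-549), -0.141 to 0.117 (Klf1, D361E), -0.133 to 0.008 (Tal1, D361E), -0.273 to 0.095 (Spi1, 362-549), -0.109 to 0.15 and -0.141 to 0.231 (Runx1, D361E and 1-361) and -0.054 to 0.307, -0.132 to 0.121 and -0.273 to 0.364 (Ikzf1, D361E, 1-361 and 362-549). Without scaling the median of all genes shifted by -0.22, -0.23, -0.41 and 0.19 against WT, and genes called between both fragments and 362-549 went from 863 higher and 1360 lower to 5146 higher and 315 lower. For D361E against WT they went from 47 higher and 27 lower to 21 and 29. Signal over background left Cebpa and Irf8 without a test.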

Other observations

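Some genes of megakaryocytes, the platelet-forming lineage that also needs GATA1 and TAL1, were called. Of 8 tested of 11 listed, 2 rose with 1-361 (0.715% of all genes called) and 3 with both fragments (5.13%), while 1 fell with D361E (0.485%) and 0 were called with 362-549 (0.715%). Pf4, a platelet chemokine, rose by 1.165 ± 0.20 with 1-361 (adjusted p = 0.00869, limma, with slide as a block 0.156) and by 2.195 ± 0.20 with both fragments (adjusted p = 4.78e-06, with slide as a block 0.00283). Itgb3, a platelet integrin, rose by 1.31 ± 0.24 with both fragments (adjusted p = 0.00343, limma, with slide as a block 0.0889), and Gp1ba, part of a platelet receptor, fell by -1.41 ± 0.21 with D361E (adjusted p = 0.00344, with slide as a block 0.165). The median change of the 8 was -0.17, 0.62, -0.31 and 0.65 with D361E, 1-361, 362-549 and both fragments, beside medians of 0.03, 0.04, 0.05 and 0.04 for all genes.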
